A study of Homo sapiens with 12 samples.

Results

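Cultured prostate cancer cells treated with camptothecin (CPT), an inhibitor of DNA topoisomerase I, were compared with cells given the vehicle DMSO. The comparison rests on the 2 samples titled CPT and the 2 titled DMSO, that is 4 of the 10 biological samples (12 arrays) of the series, and on every probe of the array. According to the study's methods the cells were LNCaP-S14, a single derivative of the androgen-responsive human prostate cancer line LNCaP that stably overexpresses SKP2, so the controls carried the SKP2 transgene too; the sample labels name LNCaP only. CPT was given at 500 nM. The labels of these 4 samples state no time, and the study's methods give 24 h for the vehicle and the control compounds. The remaining groups were the CDK inhibitor Roscovitine at 20 µM, the proteasome inhibitor Bortezomib at 50 nM and the compound SMIP004 at 40 µM for 24 h, with 2 samples each. No label says whether the samples of a pair came from separate cultures, so the p-values measure the spread between these samples, which may be technical.

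Topoisomerase I relieves the twist that builds up in DNA ahead of RNA polymerases and replication forks by cutting a strand, letting it turn and sealing it again. Camptothecin holds the enzyme on the cut DNA. A fork that runs into such a trapped enzyme leaves a double-strand break, which sets off the DNA damage checkpoint, and a polymerase that runs into it stalls.

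All values come from 1-colour bead arrays that carry 24526 probes. A level is the background-corrected, quantile-normalised log2 intensity of the brightest probe of a gene, a log2 change is the mean level with CPT minus the mean level with DMSO, and "rose" or "fell" means a Benjamini-Hochberg adjusted p under 0.05 in the limma model over all 8783 genes tested. Quantile normalisation makes every level relative to the other genes of its array, and in bulk RNA fewer cells of a type and less RNA per cell cannot be told apart. A probe that is not detected (detection p of 0.01 or more) on any array of a group has only an upper limit there. Such changes from DMSO are given as "at least N-fold" against the lowest detected signal. Differences from Bortezomib or Roscovitine are plain differences of levels, also where a group was undetected.

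Both DMSO samples lay on slide 1 and both CPT samples on slide 2, so compound and slide cannot be told apart for this pair. The first Roscovitine sample shared slide 2 with CPT, and 154 to 205 genes of it differed by 2-fold or more from a DMSO sample, against 1596 to 1619 genes for the second Roscovitine sample, 3280 to 3361 for the Bortezomib samples and 2992 to 3118 genes for each pairing of a CPT and a DMSO sample. The DMSO samples differed from each other by 2-fold or more in 8 genes and the CPT samples in 10. The Roscovitine samples differed from each other in 1215 genes, and this difference enters the shared estimate of error, so that genes which moved in the second Roscovitine sample have wide standard errors below. The arrays detected 9339 to 9909 probes, with mean raw intensities of 647 and 802 with DMSO and of 609 and 473 with CPT. Of 13 luminal prostate markers 11 were tested, of which 10 were detected on both DMSO and 8 on both CPT arrays; of 16 markers of other cell types 3 were tested, of which CD68, a lysosomal protein of macrophages, rose by 2.22 and VWF and COL1A1 did not pass the test.

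The response to camptothecin was broad and balanced. Of the 8783 genes, 2788 rose (31.7%) and 2781 fell (31.7%), and 1492 rose (17.0%) and 1489 fell (17.0%) by 2-fold or more. These percentages are the background against which the counts below have to be read. The balance of directions depends on the normalisation: with each array only scaled to 1 median, the median of all genes moved by -0.298, 1816 genes rose and 3600 fell, and 32 called genes had the opposite sign.

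**Figure D1:**
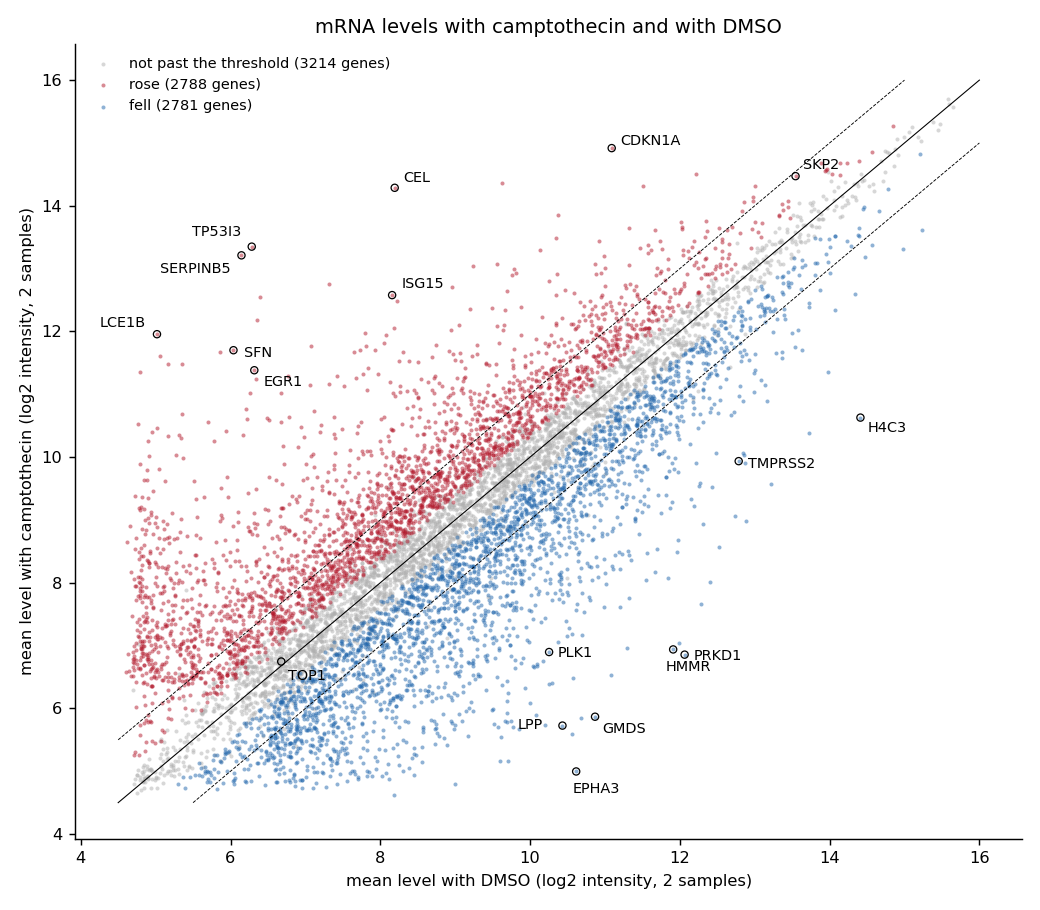
Mean level of each gene with DMSO (x axis, log2 intensity, 2 samples) against its mean level with camptothecin (y axis, log2 intensity, 2 samples), with genes that rose, fell or did not pass the test in different colours, dashed lines at 2-fold and some genes named. Of 8783 genes 2788 lie among those that rose and 2781 among those that fell, and EPHA3, GMDS and LPP stand far below the diagonal.

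No change was detected in the mRNA of the drug's target. TOP1 read 6.83 and 6.52 in the DMSO samples and 6.82 and 6.67 in the CPT samples, a log2 change of 0.07 (SE 0.166, adjusted p = 0.736), and its probe was detected on 1 of the 2 DMSO arrays. The levels of the groups overlapped. Of 13 topoisomerases and enzymes that clear trapped topoisomerase, 5 fell and 1 rose (median -0.50). TOP2A, the topoisomerase of dividing cells, had levels of 10.63 and 10.76 with DMSO and of 7.12 and 7.20 with CPT, so it fell by 3.53 (SE 0.682, adjusted p = 0.00267). On slide 2 it was 2.11 higher with CPT than with Bortezomib (adjusted p = 0.0252) and differed from Roscovitine by -1.28 (adjusted p = 0.155). Against the mean of both its change was 0.42. The TOP2A probe was detected on no Bortezomib array, so 2.11 and 0.42 rest on signals below detection and are not bounds. TOP2B, its counterpart in resting cells, fell by 1.16 and PARP1, a sensor of strand breaks, by 1.27. The gene that rose was SPRTN, a protease that digests proteins crosslinked to DNA, from 8.79 and 8.78 to 10.08 and 10.17 (log2 change 1.34, SE 0.214). TDP1, which removes the remnant of topoisomerase I from DNA, had a log2 change of 0.00, or of -1.07 as the mean over its probes.

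The tested genes known to be induced by DNA damage rose almost throughout. Of 60 listed genes 50 were tested, and 45 of them rose and 1 fell. Their median log2 change was 2.29 (2.03 with undetected genes at their bound) against -0.0001 over all genes. With no detection filter 44 of 58 rose. CDKN1A, the p21 inhibitor of cyclin-dependent kinases, stood at 11.10 and 11.08 in the DMSO samples and at 14.94 and 14.90 in the CPT samples (log2 change 3.83, SE 0.509, adjusted p = 0.000437). TP53I3, an oxidoreductase, went from 5.98 and 6.59 to 13.38 and 13.32 (7.07, SE 0.699), with its probe detected on 1 of the 2 DMSO arrays. Every CPT sample lay far above both DMSO samples for these genes. SERTAD1, a transcriptional co-regulator, rose by 5.45 (SE 0.661), and GDF15, a secreted stress cytokine, by 3.48 (SE 0.752). PRDM1, a transcriptional repressor, was detected on no DMSO array and was at least 5.54-fold higher with CPT. MDM2, a ubiquitin ligase, was also detected on no DMSO array and at least 6.23-fold higher (levels 6.08 and 6.55 against 9.08 and 9.13, adjusted p = 0.0272), but its call was lost when any of the 4 samples was left out (adjusted p 0.0741 to 0.118). The second Roscovitine sample, with 9.96, was above both CPT samples for MDM2.

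The 5 damage-induced genes that did not rise were ASCC3, STEAP3, BCL2L1, ZMAT3 and CCNG2, named here after their values were seen. ASCC3, a helicase subunit of a transcription complex, went the opposite way, from 9.09 and 9.13 to 6.33 and 6.38 (-2.75, SE 0.236). Relative to the 2 other compounds on slide 2, 30 of the 50 damage-induced genes were higher with CPT than with Bortezomib and 32 higher than with Roscovitine, against 32.7% and 24.0% of all genes. CDKN1A was not among them, with differences of 1.18 from Bortezomib (adjusted p = 0.071) and 1.25 from Roscovitine (adjusted p = 0.074), whereas TP53I3 was 6.30 higher than with Bortezomib and 2.45 higher than with Roscovitine. The median damage-induced gene in the first Roscovitine sample lay 0.13 above DMSO and in the second 1.45.

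**Figure D2:**
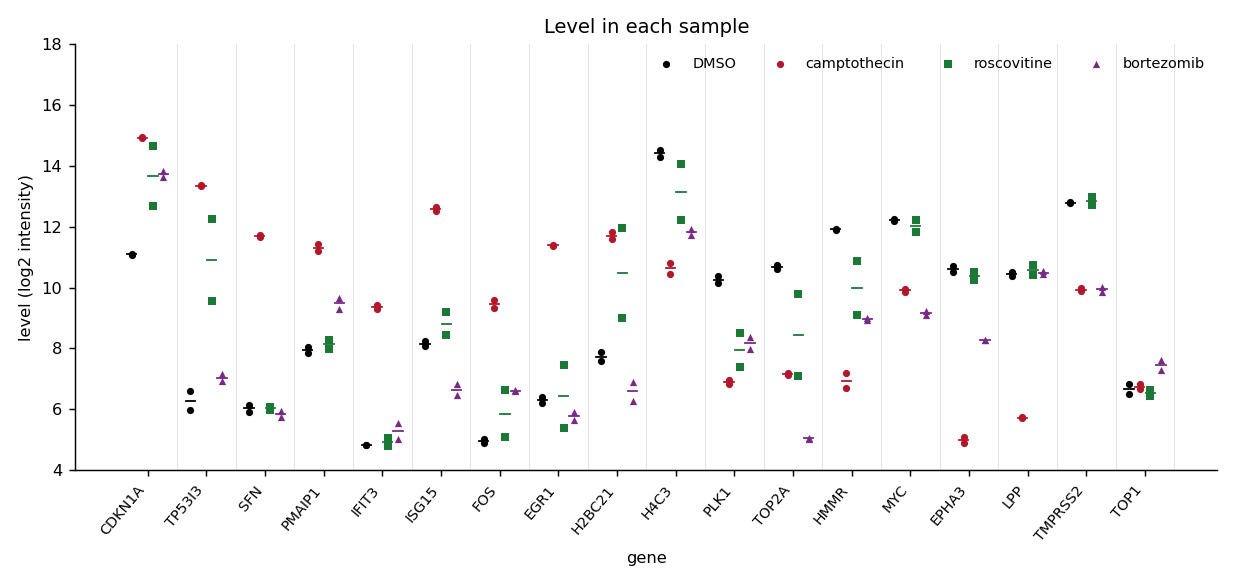
Level (y axis, log2 intensity) of 18 genes named in the text in each DMSO, CPT, Roscovitine and Bortezomib sample, 1 point per sample and a dash at the mean of each pair; levels are to be compared within a gene only, since each has its own probe. The CPT points of CDKN1A (14.94 and 14.90), SFN and IFIT3 lie above all others of the gene, those of EPHA3 and LPP below all others, and those of TOP1 among the DMSO points.

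Most of the largest rises belonged to genes whose probes were undetected, or detected on 1 of 2 arrays, with DMSO; CEL and SERTAD1, detected on both, were exceptions. SFN, the 14-3-3 sigma protein that keeps mitotic kinases out of the nucleus, had levels of 6.15 and 5.93 with DMSO and of 11.67 and 11.73 with CPT, at least 37.7-fold higher (adjusted p = 7.58e-07). It stayed undetected, at 6.07 and 5.99 in the Roscovitine samples and at 5.94 and 5.75 in the Bortezomib samples. CPT thus stood alone on its slide for this gene. The plain differences, 5.86 from Bortezomib and 5.67 from Roscovitine, rest on signals below detection and are not bounds. SERPINB5, the serpin maspin, rose from 6.38 and 5.91 to 13.15 and 13.27 (7.06, SE 1.29), with 1 of 2 DMSO arrays detecting it. LCE1B, a protein of the cornified envelope of skin, was at least 45.0-fold higher, and PRAMEF7, of a family expressed in the germline and in early embryos, at least 35.2-fold. PROCR, the endothelial protein C receptor, was at least 32.3-fold higher, PLA2G4D, a cytosolic phospholipase, at least 32.2-fold and the lipocalin LCN15 at least 29.5-fold. CEL, a bile-salt-dependent lipase, rose from 8.22 and 8.16 to 14.23 and 14.34 (6.09, SE 0.686). The antimicrobial ribonuclease RNASE7 was at least 16.8-fold higher. PRODH, which breaks down proline in mitochondria, read 5.07 and 4.96 with DMSO and 10.35 and 10.58 with CPT, and DPYSL4 rose by 5.82.

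Genes of mitosis fell nearly throughout. Of 61 tested, 56 fell, all by 2-fold or more, and none rose, with a median of -2.71 (-2.47 at the bound). In the next lines 4 of their promoters are shown, because the list shares sequence features that its choice did not use. Capitals mark the CCAAT box (CCAAT, the site of NF-Y) and the CHR (TTTGAA, the cell cycle genes homology region bound by the DREAM complex and B-MYB) on either strand, and the stretches are written along the gene, upstream of its start, from RefSeq on GRCh38.p14.
PLK1 promoter, chr16:23678804-23678877, plus strand: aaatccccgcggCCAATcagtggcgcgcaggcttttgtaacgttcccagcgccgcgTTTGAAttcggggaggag
KIF11 promoter, chr10:92593065-92593119, plus strand: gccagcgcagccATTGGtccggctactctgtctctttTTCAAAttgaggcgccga
CDC20 promoter, chr1:43358791-43358942, plus strand: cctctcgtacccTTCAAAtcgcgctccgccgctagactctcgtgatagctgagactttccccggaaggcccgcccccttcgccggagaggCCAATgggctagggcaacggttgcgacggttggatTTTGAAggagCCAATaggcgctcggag
HMMR promoter, chr5:163460443-163460627, plus strand: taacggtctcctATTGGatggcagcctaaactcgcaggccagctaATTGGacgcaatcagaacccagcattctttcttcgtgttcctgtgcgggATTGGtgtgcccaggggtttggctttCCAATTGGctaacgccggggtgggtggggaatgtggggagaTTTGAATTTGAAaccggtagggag
In these promoters a CHR started 29 bases before the start of PLK1, 28 before that of KIF11 and of HMMR, and 65 before that of CDC20.

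Among the 52 mitotic genes with a promoter in the table (250 bases before to 50 after the start), 37 held a CHR (71.2%) against 13.7% of the 7366 tested genes with a promoter and 15.2% of all 35116 promoter windows. A CCAAT box occurred in 40 (76.9%) against 44.5% of tested genes and 34.6% of all windows, and both motifs in 29 (55.8%) against 5.96% and 5.90%. HMMR, a receptor for hyaluronan that also binds spindle microtubules, fell from 11.92 and 11.90 in the DMSO samples to 7.19 and 6.69 in the CPT samples (-4.97, SE 0.475, adjusted p = 9.23e-05). PLK1, the polo-like kinase of mitotic entry, fell from 10.37 and 10.14 to 6.82 and 6.97 (-3.36, SE 0.318), and CDC20, the activator of the anaphase-promoting complex, from 12.75 and 12.73 to 9.28 and 8.85 (-3.67, SE 0.39). These groups of levels did not overlap. KIF11, the motor that separates the spindle poles, was detected on no CPT array and at least 11.7-fold lower, DLGAP5, a spindle protein, at least 19.1-fold, and BUB1, a checkpoint kinase, at least 13.6-fold. PLK1 and CDC20 were named after their values were seen.

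The mitotic list also moved with the other compounds of slide 2. Its median relative to DMSO was -0.80 in the first Roscovitine sample and -2.81 in the second, and 13 of 61 genes were lower with CPT than with Bortezomib and 14 lower than with Roscovitine, against 32.8% and 24.5% of all genes. PLK1 differed from Bortezomib by -1.28 and from Roscovitine by -1.06, whereas KIF11 differed by -0.93 (adjusted p = 0.32) and -1.98 (adjusted p = 0.062). Against the mean of Bortezomib and Roscovitine, 15 of the 61 genes were lower with CPT.

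DNA replication genes fell less uniformly, 38 of 53 tested, with 2 that rose and a median of -1.41. RRM2, the regulated subunit of the reductase that makes deoxynucleotides, went from 9.91 and 10.08 to 5.96 and 6.22, at least 12.9-fold lower. MCM3, a subunit of the replicative helicase, fell from 12.84 and 12.90 to 10.10 and 9.72 (-2.96, SE 0.574, adjusted p = 0.00267), CDC45, another part of that helicase, from 11.35 and 11.33 to 8.43 and 8.30 (-2.98, SE 0.887), and POLE2, a subunit of DNA polymerase epsilon, fell by 3.12 (SE 0.738). The count depended on single samples, with 21 to 23 genes lower when a DMSO or CPT sample was left out, and the calls of RRM2 (adjusted p 0.0787 to 0.0928) and CDC45 (0.0697 to 0.0799) were lost without any of the 4. The genes that rose were GINS4 and POLD4, and PCNA, the sliding clamp, read 12.77 and 12.75 against 13.43 and 13.38 (0.65, adjusted p = 0.0632); all 3 were named after their values were seen. Without Roscovitine in the fit, PCNA passed the test (adjusted p = 0.000159). PCNA was 4.13 above its level with Bortezomib (adjusted p = 7e-06). An E2F site (TTTCCCGC, TTTCGCGC, TTTGCCGC or TTTGGCGC, on either strand) lay in 22 of 47 replication promoters (46.8%) against 6.92% of tested genes and 3.31% of all windows, and in 7 of 52 mitotic ones (13.5%).

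Of 26 regulators of the G1 to S transition 7 rose and 11 fell, and 4 rose and 15 fell with arrays scaled to 1 median. CDKN2B, the p15 inhibitor of CDK4 and CDK6, rose from 6.48 and 6.50 to 10.65 and 10.58 (4.13, SE 0.252, adjusted p = 1.02e-05), with 1 of 2 DMSO arrays detecting it, and it was also 2.77 above Bortezomib and 3.90 above Roscovitine. MYC, the growth-promoting transcription factor, fell from 12.24 and 12.19 to 9.95 and 9.87 (-2.31, SE 0.151). CDC25A, a phosphatase that activates CDK2, fell by 2.66 and E2F2, an activator of S-phase genes, by 2.33, but neither call held when any of the 4 samples was left out (adjusted p 0.051 to 0.0613 and 0.0944 to 0.161). CCND1, cyclin D1, changed little, by -0.43 (SE 0.115, adjusted p = 0.0121), and lost its call without 3 of the 4 samples. CDKN1B, the p27 inhibitor and a substrate of SKP2, had a log2 change of 0.20 (adjusted p = 0.414). SKP2, the overexpressed F-box protein, read 13.52 and 13.57 with DMSO and 14.44 and 14.51 with CPT (0.93, SE 0.24, adjusted p = 0.0103), but lost its call without 2 of the 4 samples, and the mean over its probes gave -0.11.

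DNA damage signalling and break repair genes fell more often than they rose. Of 17 signalling genes 10 fell (58.8%) and 1 rose, and of 22 genes of homologous recombination and the Fanconi anemia pathway 10 fell (45.5%) and 1 rose (medians -0.69 and -1.11). Of all genes 31.7% fell. The 2 medians relative to DMSO were -0.43 and -1.865 with Bortezomib, -0.11 and 0.06 in the first Roscovitine sample and -0.67 and -0.95 in the second. With CPT 7 signalling genes were lower and 3 higher than with Bortezomib, and 3 recombination genes were lower and 7 higher. PRKDC, the catalytic subunit of the DNA-dependent protein kinase, fell from 9.64 and 9.60 to 6.53 and 6.21 (-3.25, SE 0.311, adjusted p = 9.24e-05), with 1 of 2 CPT arrays detecting it, MDC1, a scaffold at breaks, by 2.39, TOPBP1, an activator of ATR, by 2.02 and the checkpoint kinase gene CHEK2 by 1.75. CHEK1, the kinase downstream of ATR, fell by 1.60 (SE 0.474), and its call was lost without any of the 4 samples (adjusted p 0.0609 to 0.0875). ATM passed the test as lower (log2 change -0.57 to -0.38 when 1 sample at a time was left out). The ATM probe was detected on none of the 4 arrays, so this call rests on signals below detection. FANCI, a subunit of the complex that is loaded at stalled forks, fell by 3.38, RAD51AP1, a recombination protein, by 3.09, UBE2T, the ubiquitin-conjugating enzyme of the Fanconi pathway, by 2.68 and BLM, a helicase, by 2.36, the latter losing its call without 3 of the 4 samples. Without Roscovitine in the fit, 16 genes of the recombination list and 10 of the signalling list fell. In each list fewer than 10 genes fell when some single samples were left out.

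Of 30 excision and mismatch repair genes 9 rose and 12 fell (30% and 40%, near the 31.7% of all genes in each direction). With arrays scaled to 1 median 4 rose and 14 fell, and 5 rose without either DMSO sample. XPC, the damage sensor of nucleotide excision repair, also in the damage-induced list, rose from 9.98 and 9.78 to 12.27 and 12.50 (2.50, SE 0.367, adjusted p = 0.000695). MSH6, a mismatch sensor, fell from 11.60 and 11.56 to 9.35 and 9.10 (-2.35, SE 0.435), PMS1, of the mismatch repair family, was at least 2.29-fold lower, and NTHL1, a glycosylase of base excision repair, fell by 1.69.

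Most apoptosis genes that passed the detection filter rose, in both arms of the pathway. Of 20 listed genes of the BCL2 family 15 passed it. In the BCL2 family 11 of 15 rose and 1 fell (median 0.77), and 7 rose with arrays scaled to 1 median or without the second CPT sample. PMAIP1, the BH3-only protein NOXA, rose from 8.06 and 7.87 to 11.19 and 11.45 (3.35, SE 0.178, adjusted p = 6.27e-06). BAX, which permeabilises mitochondria, rose from 8.39 and 8.52 to 10.99 and 11.16 (2.62, SE 0.244). BAK1, its relative, was at least 3.32-fold higher, and MCL1, which opposes them, rose by 1.76. Both BAX and PMAIP1 were higher with CPT than with either other compound of slide 2. Of 33 listed death receptors, caspases and their inhibitors 22 passed the filter, and 13 of these rose and 3 fell (median 0.87, or 0.77 at the bound). In both lists a gene undetected with DMSO passed the filter only by being detected in another group, and had little room to fall. FAS, the receptor of the FAS ligand, was at least 1.84-fold higher (levels 5.11 and 5.29 against 7.33 and 7.36), CASP1, the caspase that matures interleukin-1, at least 1.91-fold, and TNFRSF10D, a decoy receptor of TRAIL, at least 4.76-fold. TNFRSF12A, the TWEAK receptor, rose by 3.25 (SE 0.122) and differed from its level with Bortezomib by -0.72.

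Immediate early and stress transcription factors rose in 19 of 24 cases and fell in 2 (median 2.05). EGR1, a zinc finger factor switched on by mitogens and stress, rose from 6.42 and 6.22 to 11.36 and 11.41 (5.06, SE 0.537, adjusted p = 0.000153), with 1 of 2 DMSO arrays detecting it. FOS and FOSL1, partners of JUN in AP-1, were detected on no DMSO array and were at least 7.97-fold and 6.26-fold higher. ATF3, a stress-induced repressor, rose from 9.36 and 9.11 to 13.08 and 12.99 (3.80, SE 0.532) and differed from its level with Bortezomib by -1.48. The genes that fell were MAFF and DUSP2, named after their values were seen. Of the 24 genes 13 were higher and 6 lower with CPT than with Bortezomib, and 18 were higher and 2 lower than with Roscovitine. Of all genes 32.7% were higher than with Bortezomib and 24.0% higher than with Roscovitine.

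Of 31 NF-kB pathway and target genes 15 passed the detection filter, and 12 of these rose and none fell (median 1.24, or 1.23 at the bound). Of 34 secreted factors of damaged cells 14 passed, and 12 rose and none fell (median 2.06, or 0.95 at the bound). In both lists a gene undetected with DMSO passed the filter only by being detected in another group, and had little room to fall. IRF1, a factor shared by the NF-kB and interferon responses, read 4.83 and 4.97 with DMSO and 9.28 and 8.78 with CPT, at least 5.91-fold higher. CCL20, a chemokine, was at least 4.96-fold higher, and RELB, a subunit of NF-kB, went from 5.24 and 5.17 to 8.11 and 7.99. NFKBIZ, a nuclear IkB protein, rose by 3.27 (SE 0.442). Among secreted proteins IGFBP3, a binding protein of insulin-like growth factors, was at least 5.99-fold higher, HBEGF, a ligand of the EGF receptor, at least 9.34-fold and MMP10, a matrix protease, at least 4.14-fold. RELB with CPT differed by 0.06 from its level with Bortezomib (adjusted p = 0.89), and CCL20 by 1.20 (adjusted p = 0.24). MMP10 was lower with CPT (8.53 and 8.50) than in the Bortezomib samples (10.04 and 9.85).

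Most detected interferon-stimulated genes rose. Of 44 listed genes 22 passed the detection filter, 21 of these rose, all by 2-fold or more, and 1 fell (median 2.21, or 1.67 at the bound). A gene undetected with DMSO passed the filter only by being detected in another group, and with no detection filter 26 of 38 rose. Promoters of 4 members are shown because nearly all of the list share the interferon-stimulated response element (ISRE, GAAANNGAAA on either strand, the site of interferon regulatory factors), which is in capitals below; stretches are written along the gene from RefSeq on GRCh38.p14.
IFIT1 promoter, chr10:89392489-89392547, plus strand: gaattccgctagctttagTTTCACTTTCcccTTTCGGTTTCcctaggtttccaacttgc
IFIT3 promoter, chr10:89327823-89327902, plus strand: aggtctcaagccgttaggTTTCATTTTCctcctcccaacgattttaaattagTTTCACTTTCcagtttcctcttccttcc
ISG15 promoter, chr1:1013366-1013417, plus strand: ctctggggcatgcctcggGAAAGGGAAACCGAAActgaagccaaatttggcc
TAP1 promoter, chr6:32853805-32853856, minus strand: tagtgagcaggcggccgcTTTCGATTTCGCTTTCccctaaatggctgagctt
Each stretch holds the motif more than once: it began 116 and 103 bases before the start of IFIT1, 156 and 122 before this start of IFIT3, and, overlapping, 113 and 107 before that of ISG15 and 134 and 128 before that of TAP1.

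An ISRE lay in 16 of the 18 interferon genes with a promoter in the table (88.9%), against 3.77% of the 7366 tested genes with a promoter and 3.57% of all windows, and in 5.90% of the genes that rose by 2-fold or more. ISG15, a ubiquitin-like modifier, rose from 8.23 and 8.09 to 12.51 and 12.65 (4.42, SE 0.245, adjusted p = 6.73e-06). IFIT3, which binds viral RNA with its relatives, read 4.82 and 4.82 with DMSO and 9.43 and 9.30 with CPT, at least 7.47-fold higher. It stayed at 4.81 and 5.06 with Roscovitine and at 5.02 and 5.55 with Bortezomib. IFIT1 was at least 8.93-fold and IFIT2 at least 17.1-fold higher, the latter with 7.97 and 7.96 in the Bortezomib samples. TAP1, the peptide transporter of antigen presentation, rose from 9.70 and 9.41 to 12.99 and 13.16 (3.52, SE 0.436). The gene that fell was IFITM1 (-0.46, adjusted p = 0.0305), a call lost without any of the 4 samples, and it and TAP1 were named after their values were seen. With CPT 15 of the 22 genes were higher than with Bortezomib and 21 higher than with Roscovitine, and the list's median relative to DMSO was -0.10 and 0.16 in the Roscovitine samples and 0.72 with Bortezomib. The count was 20 to 21 when any single sample was left out.

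**Figure D3:**
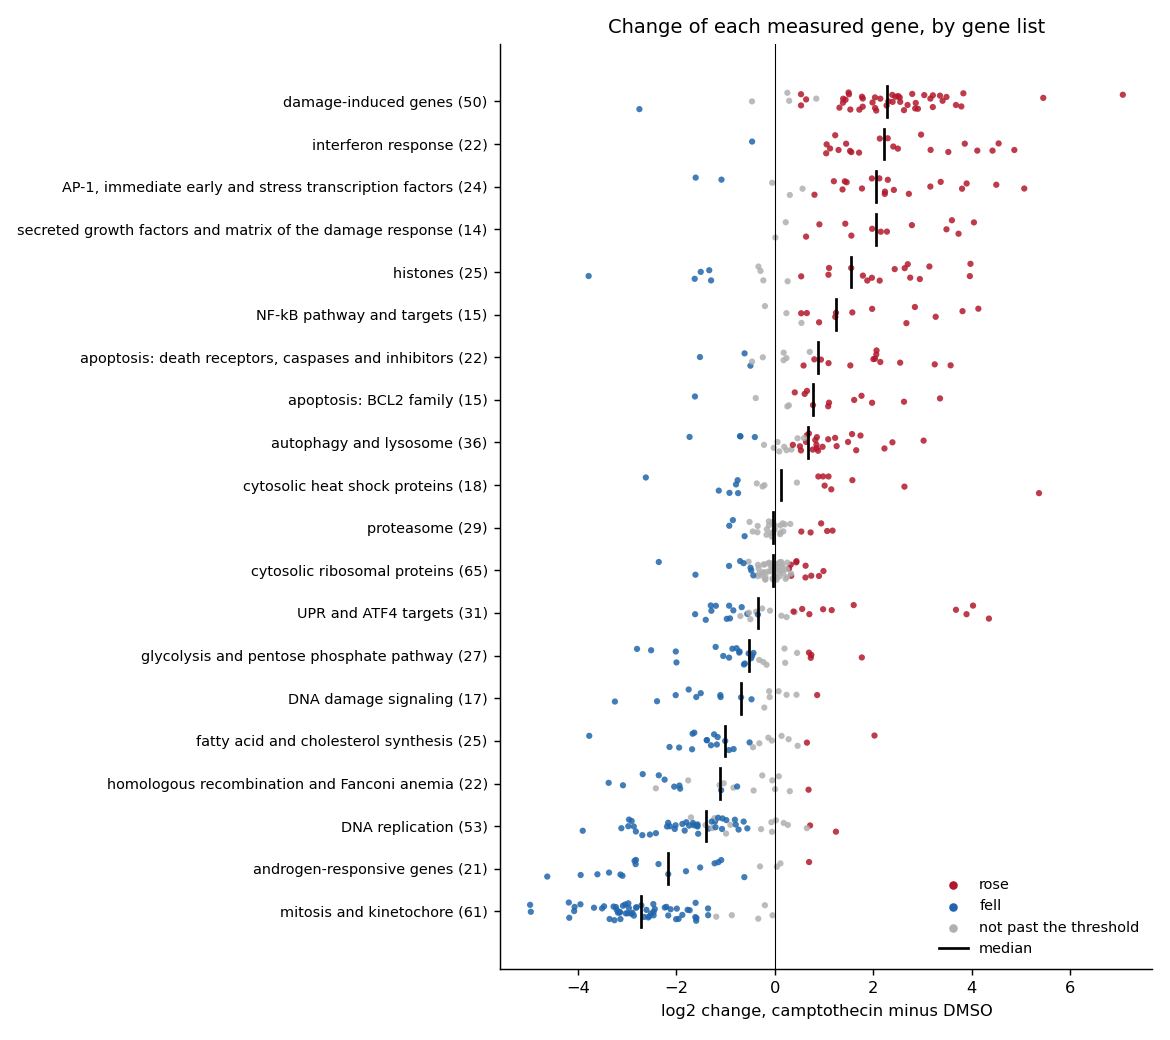
Log2 change, camptothecin minus DMSO (x axis), of every measured gene in gene lists named in the text (y axis, with the number of genes), 1 point per gene and a black line at the median. The interferon (median 2.21), damage-induced (2.29) and AP-1 (2.05) lists lie to the right of 0 and the mitosis (-2.71), androgen-responsive (-2.17) and DNA replication (-1.41) lists to the left.

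Histone genes rose in 16 of 25 cases and fell in 5 (median 1.55, or 1.09 at the bound), with 10 that rose when the second DMSO or the first CPT sample was left out. These 25 were the genes, of 40 listed, that passed the detection filter. A histone gene undetected with DMSO passed it only by being detected in another group, and with no detection filter 17 of 37 rose. Replication-dependent histone mRNAs normally lack a poly(A) tail, and the labelled RNA was primed from poly(A) tails, so the assay favours polyadenylated forms. H2BC21 rose from 7.88 and 7.59 to 11.82 and 11.60 (3.97, SE 0.773, adjusted p = 0.00275), H2BC5 from 8.08 and 7.53 to 11.88 and 11.65 (3.96, SE 0.665) and H2AC18 by 3.14. H4C3 went the other way, from 14.30 and 14.53 to 10.80 and 10.46 (-3.78, SE 0.482). Histone genes have near-identical copies, so which copy a probe reads is uncertain. The replacement histones H2AZ1, H2AZ2 and H2AX and the variant MACROH2A1 made up the rest of those that fell, and were named after their values were seen; the call of H2AX was lost without any of the 4 samples and that of H2AZ1 without 1. Markers of proliferation fell in the same samples (56 of 61 mitotic genes), and their part in the histone levels was not tested.

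Above 25 kb, the longer the class of genes, the lower its median change. In genes under 5 kb the median log2 change was 0.22, with 41.3% higher and 19.5% lower, and it was 0.26 at 5 to 10 kb, 0.23 at 10 to 25 kb, 0.04 at 25 to 50 kb, -0.17 at 50 to 100 kb, -0.56 at 100 to 200 kb and -1.25 over 200 kb. In the longest class, of 482 genes, 68.9% fell and 9.96% rose. The CPT samples gave -1.21 and -1.27 for this class against the mean of DMSO. Of the samples that shared their slide, Roscovitine gave -0.08 and -0.05 and the mean of Bortezomib 0.09, and within slide 2 the class gave -1.25 for CPT minus Bortezomib and -1.07 for CPT minus Roscovitine. It was -1.02 among genes detected on all DMSO and CPT arrays, -1.57 among the brighter and -1.07 among the dimmer genes of the class, and -1.24 without the cell cycle lists. With no detection filter, which adds probes near background, the median of the 1225 genes over 200 kb was -0.10. Lengths are genomic spans from RefSeq on GRCh38.p14, known for 99.9% of the genes, and the medians are descriptions across genes.

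**Figure D4:**
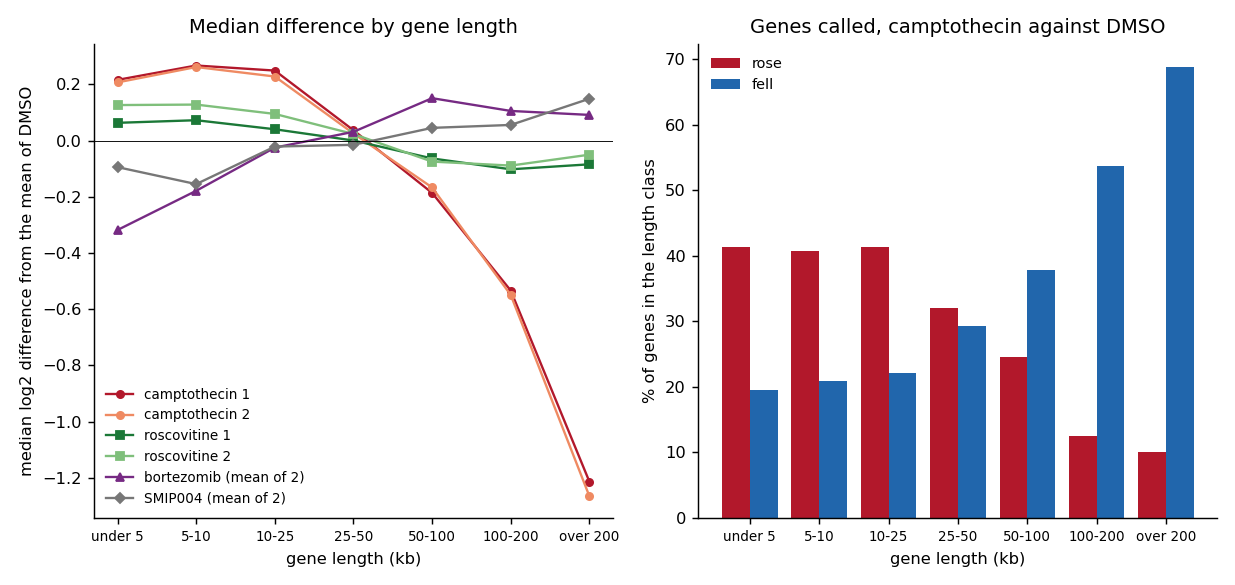
Left, median log2 difference from the mean of DMSO (y axis) by gene length class (x axis, kb) for each CPT sample and for the other compounds; right, share of genes (y axis, %) that rose or fell with camptothecin in each class. Both CPT lines fall to -1.21 and -1.27 over 200 kb while the other compounds lie between -0.08 and 0.15, and the share that fell goes from 19.5% to 68.9%.

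Of the 15 largest falls of all genes, 12 lay in genes over 200 kb (median length of the 15 genes 364 kb), and of the 15 largest rises none did (median 7.40 kb). EPHA3, an ephrin receptor spanning 375 kb, had levels of 10.52 and 10.71 in the DMSO samples and of 5.10 and 4.90 in the CPT samples, at least 19.9-fold lower (adjusted p = 7.75e-07). It read 10.50 and 10.24 with Roscovitine and 8.29 and 8.27 with Bortezomib, so the CPT samples were the lowest of the slide. GMDS, an enzyme of GDP-fucose synthesis over 622 kb, fell from 10.88 and 10.86 to below detection, at least 23.6-fold. LPP, a focal adhesion protein encoded over 738 kb, was at least 17.5-fold lower with CPT (5.75 and 5.71), while the Bortezomib samples (10.45 and 10.53) and the Roscovitine samples (10.41 and 10.74) lay with DMSO (10.50 and 10.36). LRBA (751 kb), a vesicle trafficking protein, was at least 20.7-fold lower, SMYD3 (758 kb), a methyltransferase, at least 14.9-fold, ANK3 (707 kb), an ankyrin, at least 10.6-fold and KCNMA1 (768 kb), a potassium channel, at least 9.77-fold. PRKD1, a kinase of the protein kinase D family over 351 kb, fell from 12.05 and 12.08 to 7.10 and 6.61 (-5.21, SE 0.202), and PRUNE2 (295 kb), CMSS1 (364 kb) and LIMCH1 (340 kb) had log2 changes of -4.96, -4.56 and -4.39. The other 3 of the 15 largest falls lay in genes under 200 kb, SAPCD2 with 8.43 kb, HMMR with 31.3 kb and DLGAP5 with 43.5 kb.

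Long genes also rose. Of the genes over 200 kb 48 rose, and of the 73 genes over 500 kb 11 rose and 51 fell (median -1.74). SUGCT, a mitochondrial CoA transferase of 904 kb, read 5.16 and 5.37 with DMSO and 10.04 and 10.03 with CPT, at least 11.9-fold higher (adjusted p = 0.000274). GABBR2, a subunit of the GABA B receptor of 421 kb, was at least 7.51-fold higher, and FBXW7, a ubiquitin ligase subunit of 216 kb, rose by 2.90 (SE 0.616). These 3 were chosen after their values were seen.

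Androgen-responsive genes of the luminal prostate fell. Of 30 listed genes 21 were tested, and 17 fell and 1 rose (median -2.17, or -1.52 at the bound). ABCC4, an androgen-responsive drug transporter, fell from 12.20 and 12.37 to 7.66 and 7.67 (-4.62, SE 0.433, adjusted p = 8.32e-05). This gene spans 282 kb. SLC45A3, the transporter prostein, fell from 12.29 and 12.74 to 8.56 and 8.59 (-3.95, SE 0.499), FKBP5, an androgen-induced co-chaperone, by 3.60 and SPDEF, an ETS factor of luminal cells, by 3.37. TMPRSS2, a surface protease, fell from 12.81 and 12.77 to 9.98 and 9.89 (-2.85, SE 0.135), while the Roscovitine samples read 12.99 and 12.71. KLK2, a kallikrein, and KLK3, which encodes prostate-specific antigen, were detected on no CPT array and were at least 2.87-fold and 1.74-fold lower, the KLK3 call being lost without 3 of the 4 samples (adjusted p 0.0742 to 0.103). The KLK3 probe was dim, with levels of 6.78 and 7.42 in the DMSO samples. With CPT 15 of the 21 genes were lower and 1 higher than with Roscovitine, and 4 were lower and 7 higher than with Bortezomib. Of all genes 24.5% were lower and 24.0% higher than with Roscovitine, and 32.8% lower and 32.7% higher than with Bortezomib. The list's median relative to DMSO was -2.21 with Bortezomib, and TMPRSS2 with CPT differed from its level with Bortezomib by -0.01 (adjusted p = 0.97). KRT8, a keratin of luminal cells, rose from 10.40 and 10.29 to 12.56 and 12.59 (2.23), and was named after its values were seen.

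The transcription and RNA machinery moved by smaller steps. Of 43 genes of RNA polymerase II, elongation factors and Mediator 15 rose and 7 fell (34.9% and 16.3%, against 31.7% of all genes in each direction, median 0.28). The balance turned with arrays scaled to 1 median, to 6 higher and 11 lower (median -0.02), and leaving out single samples gave 9 to 23 that rose, with the lowest count without the second DMSO sample and the highest without either Roscovitine sample. POLR2A, the largest subunit of the polymerase, rose from 11.16 and 11.26 to 12.46 and 12.63 (1.33, SE 0.243, adjusted p = 0.00201) and CDK9, the kinase that releases paused polymerase, by 1.24. CCNH, the cyclin of TFIIH, fell by 1.42 and SSRP1, a subunit of the histone chaperone FACT, by 1.37. In RNA polymerase I and ribosome biogenesis 26 of 44 fell and 4 rose (median -0.47), with 16 without the second DMSO and 17 without the first CPT sample. DDX10, an RNA helicase, fell from 10.49 and 10.32 to 7.98 and 7.80 (-2.51, SE 0.136), DKC1, the pseudouridine synthase, fell by 1.65, HEATR1 fell by 1.29 and NOP16 fell by 1.28.

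Of 50 spliceosome and SR protein genes 22 fell and 7 rose. SF3B3, a subunit of the U2 particle, fell by 2.08 and SNRPD1, a core Sm protein, fell by 1.70, SRSF3, an SR protein, was at least 1.34-fold lower, and CLK1, a kinase of SR proteins, rose by 1.54. Cytosolic ribosomal protein genes mostly did not pass the test, with 10 of 65 higher and 8 lower (median -0.04). The latter count was 24 with arrays scaled to 1 median. RPL36A was at least 3.76-fold lower, RPS7 fell by 1.61, RPL22 by 0.93 and RPL34 rose by 0.99. Of 38 histone acetylation and methylation enzymes 12 fell and 6 rose (31.6% and 15.8%, against 31.7% of all genes in each direction). KDM6A, an H3K27 demethylase, fell by 1.94, SUV39H1, an H3K9 methyltransferase, by 1.55 and EZH2, the H3K27 methyltransferase, by 1.96, the last losing its call without any of the 4 samples (adjusted p 0.0841 to 0.113). NSD2, an H3K36 methyltransferase, was at least 2.05-fold lower.

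Genes of biosynthetic metabolism fell more often than they rose. Fatty acid and cholesterol synthesis had 16 of 25 genes lower and 2 higher (median -1.01). ELOVL6, a fatty acid elongase, fell from 12.01 and 11.67 to 8.17 and 7.96 (-3.77, SE 0.271, adjusted p = 2.18e-05), ELOVL5 by 2.14 and ACACA, the acetyl-CoA carboxylase that commits carbon to fatty acids, by 1.95, while SC5D, of late cholesterol synthesis, rose by 2.02. In glycolysis and the pentose phosphate pathway 17 of 27 fell and 4 rose (median -0.53). PFKP, a phosphofructokinase, fell by 2.80, HK2, a hexokinase, fell by 2.51, PGK1 fell by 2.01 and LDHB, a lactate dehydrogenase subunit, fell by 2.00. Among 61 genes for respiratory complexes or ATP synthase 22 fell, 2 of them by 2-fold or more, and 7 rose (median -0.19). These are 36.1% and 11.5%, against 31.7% of all genes in each direction. With arrays scaled to 1 median 37 of the 61 fell, as did 3600 of all 8783 genes. ATP5MC1 fell by 1.12 and NDUFB10 by 0.91, UQCR11 was at least 1.67-fold lower and NDUFB1 at least 1.76-fold higher.

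Of 31 genes of the unfolded protein response and of ATF4 10 rose and 12 fell (32.3% and 38.7%, near the 31.7% of all genes in each direction), and 7 rose and 15 fell with arrays scaled to 1 median. DDIT3, the factor CHOP, rose from 7.64 and 7.65 to 11.59 and 11.75 (4.02, SE 0.662, adjusted p = 0.00123), PPP1R15A, which restores translation, from 6.59 and 6.77 to 11.05 and 11.00 (4.35, SE 0.68), SLC3A2, an amino acid transporter subunit, by 3.89, and SESN2, which is also in the damage-induced list, was at least 5.89-fold higher. HSPA5, the chaperone BiP, instead fell from 7.30 and 7.79 to 6.87 and 6.87 (-0.67, SE 0.181), a call lost without 3 of the 4 samples, and differed from its level with Bortezomib by -3.59. Of 18 cytosolic heat shock genes 8 rose and 6 fell (44.4% and 33.3%), and 7 rose and 8 fell with arrays scaled to 1 median. CRYAB, a small heat shock protein, was at least 13.8-fold higher and DNAJB4, a DnaJ co-chaperone, at least 3.78-fold, HSPB8, detected on 1 of the 2 CPT arrays, rose by 1.57 and FKBP4, a co-chaperone of steroid receptors, fell by 2.62. All 18 were lower with CPT than with Bortezomib, as were 28 of 29 proteasome genes. Against DMSO 5 proteasome genes rose and 3 fell (17.2% and 10.3%, against 31.7% of all genes in each direction), and with arrays scaled to 1 median 3 rose and 12 fell (median -0.42). ADRM1, a ubiquitin receptor of the proteasome, rose by 1.17, PSMD4 by 1.06 and PSMC4 by 0.94, and PSMD11 was at least 1.39-fold lower.

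Genes of autophagy and the lysosome rose in 23 of 36 cases and fell in 4 (63.9% and 11.1%, against 31.7% of all genes in each direction, median 0.67). With arrays scaled to 1 median 16 rose and 5 fell. With CPT 9 were higher and 16 lower than with Bortezomib, against 32.7% and 32.8% of all genes. The list's median relative to DMSO was 0.765 with Bortezomib. NEU1, the lysosomal sialidase, rose from 8.35 and 8.65 to 11.36 and 11.68 (3.02, SE 0.364, adjusted p = 0.000271), MAP1LC3B, which coats autophagosomes, from 8.56 and 8.30 to 10.65 and 10.99 (2.39, SE 0.276), GABARAPL1, of the same family, by 2.23 and the membrane protein LAMP1 by 1.74. Of 25 NRF2 targets and glutathione genes 9 rose and 5 fell (36% and 20%, against 31.7% of all genes in each direction), and 8 rose and 9 fell with arrays scaled to 1 median. AKR1B10, an aldo-keto reductase, read 4.81 and 4.77 with DMSO and 9.83 and 9.94 with CPT, at least 10.7-fold higher, and AKR1C3 was at least 1.53-fold higher. GPX1, a glutathione peroxidase, rose by 2.29. HMOX1, heme oxygenase 1, rose by 3.34 (SE 1.10), a call lost without any of the 4 samples (adjusted p 0.0917 to 0.104).

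Detection itself changed for many genes. Probes of 699 genes were detected on no DMSO array and on both CPT arrays, and those of 455 on both DMSO arrays and on no CPT array. Their median lengths were 21.3 kb and 83.7 kb, and that of all genes was 28.3 kb. Of the 699 genes, 379 were detected on no Bortezomib and no Roscovitine array, RNASE7, CASP1 and FAS among them. GALR2, a galanin receptor, was at least 19.7-fold higher than with DMSO but also detected with Bortezomib (9.46 and 9.38 against 10.70 and 10.83 with CPT).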

How the data were processed

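Total RNA of 10 biological samples was hybridised, as biotin-labelled cRNA made by oligo(dT)-primed amplification, to 12 Illumina HumanRef-8 v2 arrays on 2 slides. The deposited scanner table holds, per array, the authors' bead-summarised intensities without normalisation and detection p-values; the deposited series table holds log2 values processed by the authors. The versions of the scanner software are not given in the sources used here. Intensities were corrected with neqc of limma 3.58.1 (R 4.3.3; background from detection p-values, offset 16, log2, quantile). Probes with a detection p under 0.01 throughout any 1 group were kept, 11111 of 24526; 962 of these have no gene name in the platform table and were not assigned to genes. The platform table gave 21834 probes 1 gene, 0 several and 2692 none, and 99.9% of its gene IDs were matched to current symbols. Of the 1141 genes with several kept probes the brightest was used. Technical SMIP004 arrays were averaged, and 1 limma model (lmFit, eBayes) with 5 group means was fitted to the 10 samples (5 residual and 2.95 prior degrees of freedom). Contrasts were CPT minus DMSO and, within slide 2, CPT minus Bortezomib and CPT minus Roscovitine, each adjusted by Benjamini-Hochberg over 8783 genes. Bounds set an undetected group at the higher, per array, of its own signal and the lowest detected signal. The number of arrays limits the precision. Steps were tested on simulated data.

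Genes named were the 15 largest rises and falls among called genes whose samples did not overlap, up to 4 called members with the largest change per list, 17 genes chosen for their role, and the 8 largest bounds in each direction; any other name was chosen after its values were seen. The comparison and the gene lists were chosen with earlier results of these data known. Alternatives changed the background correction, scaling, filter, probe rule, samples in the fit, variance model and reference group, and used the authors' log2 table. Promoter letters and gene lengths came from RefSeq tables on GRCh38.p14, in which 7366 of the genes tested had a promoter. Some items are not reported here.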

Additional observations from a re-analysis of the deposited data

Results flagged for a closer look

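Probes that passed the detection filter but have no gene name in the platform table took no part in the comparisons above, and many of them moved. Of these 962 probes 278 rose and 318 fell with camptothecin by the same model, 148 and 163 of them by 2-fold or more. Which transcripts they read was not analysed here. No group had the 4 samples that a search for single outlying values needs.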

How the results depend on the processing

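Of the values of single named genes under the alternatives, 3061 kept their side of the threshold and, where called, their direction. A further 110 lost the call and 24 gained it. In 16 the sign changed with a call in the main model or under the alternative. Sign changes of genes called in neither were not counted. Of the counts in gene lists 610 stayed within 1.5 times, 60 were smaller and 27 larger. With arrays scaled to 1 median 1816 genes rose against DMSO and 1334 were higher than with Roscovitine (2105 otherwise). The median of genes over 200 kb, -1.25, was -0.85 with no background correction, -0.85 in the authors' table, -1.40 with scaled arrays, -0.10 with no detection filter, -1.40 over genes detected in DMSO or CPT and -1.13 against the mean of Bortezomib and Roscovitine. Against that mean 9 DNA replication, 15 mitosis and 8 androgen-responsive genes were lower, and CCND1 (1.21), E2F2 (0.41), GABARAPL1 (-0.50), HMOX1 (-0.34), HSPB8 (-0.63), NDUFB10 (0.25), PSMC4 (-0.75), PSMD4 (-0.10), SKP2 (-0.18), SUV39H1 (0.0235), H2AX (0.14), IFITM1 (0.15), STEAP3 (0.93) and TOP2A (0.42) changed sign. With the mean over probes SKP2 (-0.11) and TDP1 (-1.07) did so. The E2F2 and TOP2A values against the mean of Bortezomib and Roscovitine rest on Bortezomib signals below detection. The causes were not tested.

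Leaving out 1 sample at a time, where a lone sample of a pair is assumed to vary like the other groups, gave 2165 to 3357 genes that rose, 2125 to 3374 that fell, 1426 to 3114 lower than with Roscovitine, 21 to 45 DNA replication genes lower and 10 to 16 histone genes higher. The Roscovitine, and for the slide 2 contrasts the Bortezomib, samples were left out as an alternative chosen after seeing the data. Replicate numbers are shared by the groups, and the replicate differences of DMSO and CPT correlated at -0.05 across genes. This gave no sign of a pairing, but with 1 difference per group it cannot show that the samples were unpaired. With the replicate block 2725 genes rose and 2720 fell. The 2 samples per group limit what the test can call among genes that also moved in the second Roscovitine sample.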

Other observations

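Some genes and families outside the gene lists are given as values only; they were picked after the values were seen, and members undetected with DMSO passed the detection filter only by being detected in another group. Late cornified envelope genes form the barrier of the outer skin. LCE1B read 5.05 and 4.99 with DMSO and 11.86 and 12.06 with CPT, and LCE1A was at least 4.23-fold and LCE1E at least 2.79-fold higher. TGM5, a transglutaminase, was at least 2.64-fold and CALML3, a calmodulin-like protein, at least 4.04-fold higher. Of the APOBEC3 cytidine deaminases APOBEC3H was at least 18.7-fold higher and APOBEC3B rose by 3.19, with 1 of 2 DMSO arrays detecting the latter. For the 4 genes of this family the first Roscovitine sample differed from DMSO by a median of 0.06 and the second by -0.18.

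The 8 PRAMEF genes tested had a median log2 change of 3.64 (2.29 with undetected genes at their bound), and a median of 4.31 above DMSO in the second Roscovitine sample. ZSCAN4, a factor of early embryonic cells, read 6.09 and 5.63 with DMSO, 11.61 and 11.74 with CPT and 6.92 and 12.48 in the Roscovitine samples, and TRIM48 rose by 4.70 (SE 1.27), a call lost without 3 of the 4 DMSO and CPT samples. PRAMEF genes are near-identical, so which copy a probe reads is uncertain. Of 11 alpha and beta tubulin genes 6 fell and 3 rose, with TUBB falling from 13.14 and 13.29 to 9.69 and 9.45 and TUBB3 rising by 2.14. The lamin LMNB1 was at least 7.51-fold lower and LMNA rose by 2.45 (SE 0.213). Of 239 zinc finger genes with a ZNF symbol 92 rose and 38 fell (median 0.29), against 31.7% of all genes in each direction.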
